A study of Mus musculus with 18 samples.

Results

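The MAP kinase cascade is described here through 49 genes of 22428 in the deposited expression table of sorted microglia. They were taken from the rows whose symbol begins with Map2k, Map3k, Map4k, Mapkapk or with Mapk and a digit. By role they were 11 MAPKs, 7 MAP2Ks, 16 MAP3Ks, 5 MAP4Ks, 3 MAPK-activated kinases (MAPKAPKs) and 7 others, which comprise scaffolds, interacting proteins and transcripts named after a kinase gene. CD45, CD11b and P2ry12 positive microglia were sorted from the medial prefrontal cortex (mPFC) of C57BL6/J mice at postnatal day 51 and sequenced in bulk. The 16p11dup-THC group (n = 4) carried the 16p11dup duplication and received delta-9-tetrahydrocannabinol (THC) at 8 mg/kg under the skin once a day from day 30 to day 51. The 16p11dup-Veh group (n = 4) carried the duplication and received vehicle, the WT-THC group (n = 4) was wild type and received THC, and the WT-Veh group (n = 6) was wild type and received vehicle. The duplication was not restricted to microglia, wild-type animals were littermates, and no source states that each library came from 1 mouse.

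In a MAP kinase cascade a MAP4K or a small GTPase activates a MAP3K, which phosphorylates a MAP2K, which phosphorylates a MAPK on neighbouring threonine and tyrosine residues of its activation loop. The ERK branch is known for growth factor signals, whereas the p38 and JNK branches are known for stress and inflammatory signals, and in microglia p38 and its substrate kinase MK2 (Mapkapk2) are known for control of cytokine mRNA. Activity is set by phosphorylation, so that an mRNA level gives the amount of transcript and not the activity of a kinase.

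The branches differ in the phosphorylated motif of the activation loop, whose codons are shown for the 4 MAPKs with a count in every library and for the p38 substrate Mapkapk2. Each line is coding sequence of the GENCODE M21 transcript (GRCm38), read 5′ to 3′, with the codons of the phosphorylated motif in capitals.
Mapk14: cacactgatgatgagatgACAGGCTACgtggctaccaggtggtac
Mapk8: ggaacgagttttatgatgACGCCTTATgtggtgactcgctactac
Mapk9: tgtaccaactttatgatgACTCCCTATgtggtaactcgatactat
Mapk6: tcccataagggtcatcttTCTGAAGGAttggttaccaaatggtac
Mapkapk2: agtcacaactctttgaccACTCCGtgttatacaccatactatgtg
The capitals of Mapk14 (p38α) encode threonine, glycine and tyrosine from residue 180, and those of Mapk8 (JNK1) and Mapk9 (JNK2) encode threonine, proline and tyrosine from residue 183. Mapk6 (ERK3), an atypical member, has serine, glutamate and glycine from residue 189 and lacks the tyrosine. In Mapkapk2 the capitals encode threonine 208, which p38 phosphorylates, and the proline after it.

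The deposited values were log2 values of counts relative to a scaled library size (CPM, counts scaled to a common library size), from which the estimated counts were recovered. Recovered totals were 7045444 to 15459286 counts per library, and 8778 to 12350 genes had a count in a library. All 11 microglial markers examined were counted, with a summed level of 19943 to 33031 CPM in 16p11dup-THC, 18504 to 25897 in 16p11dup-Veh, 18087 to 27625 in WT-THC and 15744 to 30977 in WT-Veh libraries. Neuronal markers summed to at most 50.3 CPM, astrocyte markers to at most 134, oligodendrocyte markers to at most 111, endothelial markers to at most 189.6, border macrophage markers to at most 183, and monocyte or neutrophil markers to at most 190.1 CPM in any library. Over the 5 comparisons of 2 groups, microglial markers reached an unadjusted p of 0.05 in 6 of 55 tests (10.9%), against 3.64% to 5.8% of all genes by comparison. By the sign of the limma difference, which is adjusted for mapped percent, Csf1r was higher in WT-THC and in 16p11dup-THC over WT-Veh and in 16p11dup-THC over 16p11dup-Veh. Its unadjusted mean was nevertheless lower in WT-THC (6864 ± 631 CPM, SD) than in WT-Veh (7249 ± 1562 CPM). Cx3cr1 was higher in 16p11dup-THC over WT-Veh, Tmem119 was higher in 16p11dup-THC over 16p11dup-Veh, and Aif1 was lower in 16p11dup-THC over WT-THC. Counted oligodendrocyte markers reached it in 2 of 25 tests, endothelial in 2 of 15, neuronal in 1 of 30, border macrophage in 1 of 25, monocyte or neutrophil in 1 of 15, astrocyte in 0 of 25 and lymphocyte in 0 of 5. No marker of any list passed a limma adjusted p of 0.10. The summed endothelial markers were at 0.092 to 156 CPM in 16p11dup-THC, 0.079 to 22.9 in 16p11dup-Veh, 33.6 to 189.6 in WT-THC and 0.37 to 146 in WT-Veh libraries, and the border macrophage markers at 3.95 to 73.9, 7.85 to 49.6, 0 to 183 and 0.12 to 43.5 CPM in the same order. Of the defining markers, Tubb3, Cldn5, Ly6c2, Cd3e and Cd3d had no count. The part of these markers and cells in the differences below was not tested, and in bulk RNA fewer cells of a type and less RNA per cell cannot be told apart.

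Of the 49 genes, 28 had a count in all 18 libraries (57.1%), against 24.6% of all genes. A further 13 were counted in 4 to 17 libraries, 5 in 1 to 3 libraries and 3 in none. The 3 without a count were Mapk13 (p38δ), Mapk15 (ERK8) and Map3k7cl. Those in 1 to 3 libraries were Map3k6, Map4k1, Mapk4, Mapk8ip2 and Map2k3os. Among the roles, 4 of 11 MAPKs, 5 of 7 MAP2Ks, 10 of 16 MAP3Ks, 4 of 5 MAP4Ks and 2 of 3 MAPKAPKs were counted in every library. A library held a count for 34 to 37 members in 16p11dup-THC, 34 to 41 in 16p11dup-Veh, 34 to 38 in WT-THC and 36 to 41 in WT-Veh. The number of members detected overlapped between all groups.

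**Figure D1:**
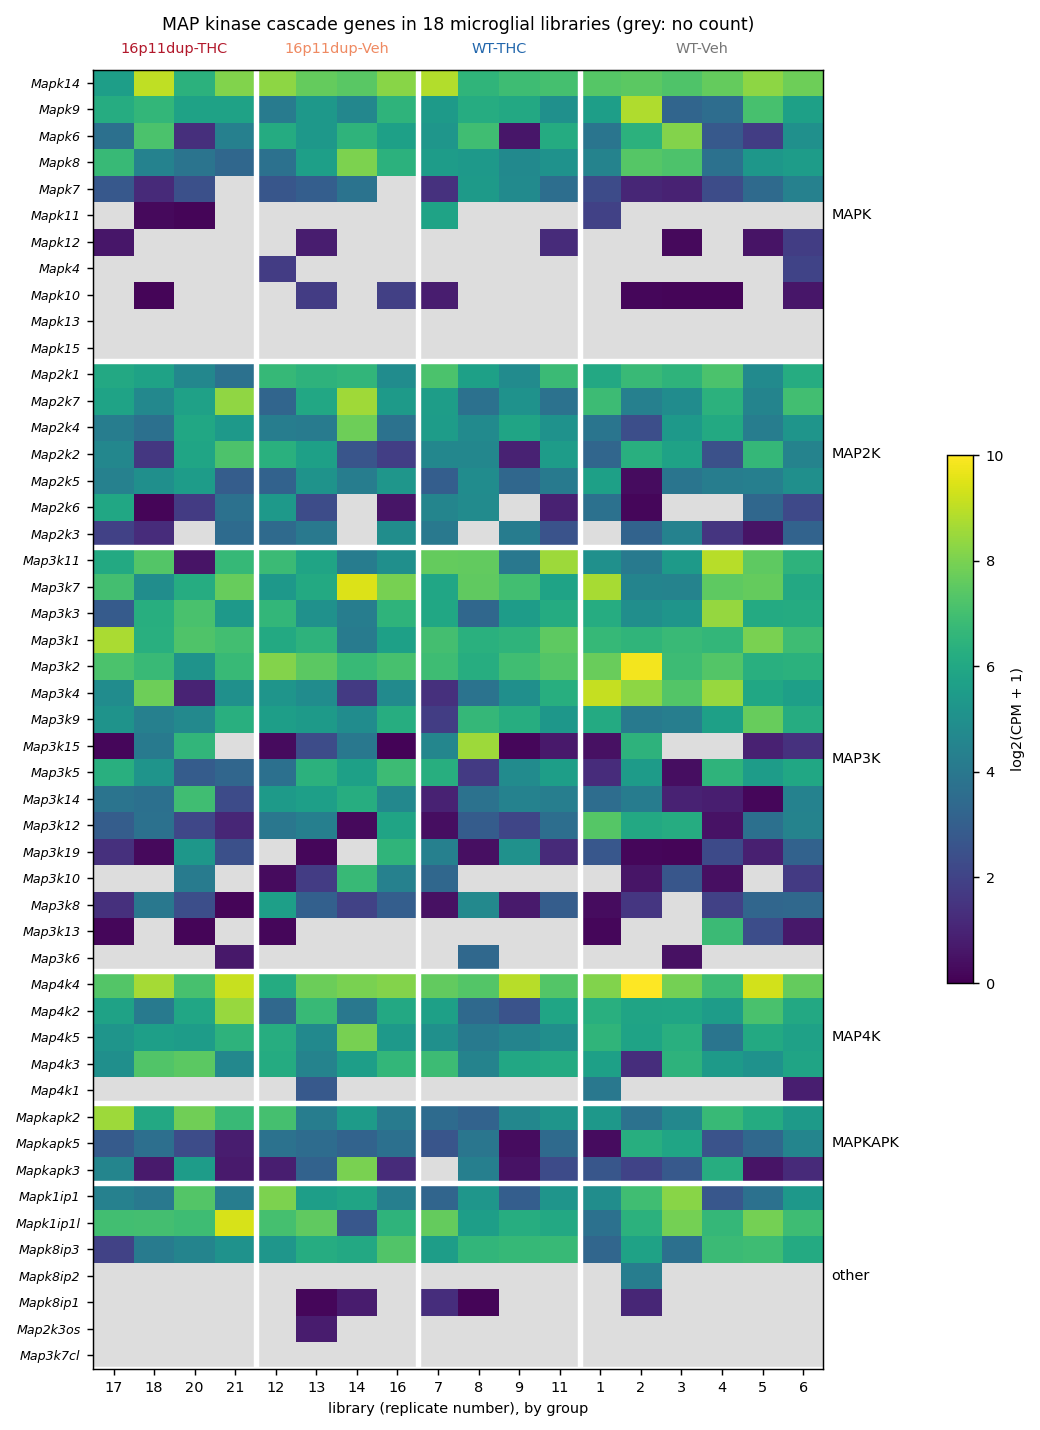
Heat map of the 49 genes (rows, by role and then by level) in 18 libraries (columns, by group), with colour for log2(CPM + 1) and grey for no count. Mapk13, Mapk15 and Map3k7cl are grey throughout, and the 28 genes counted in all 18 libraries have no grey cell.

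To set levels of different genes side by side, CPM were divided by the length of the merged exons in kb. Mapk14, which encodes p38α, had the highest level of all 49 genes, with 49.8 ± 28.7 CPM per kb (SD over 18 libraries), and it was the highest MAPK in 16 of 18 libraries. The JNK genes Mapk9 and Mapk8 averaged 11.1 ± 14.6 and 5.46 ± 5.83 CPM per kb, and Mapk6 averaged 8.94 ± 10.5 CPM per kb. Mapk14 exceeded Mapk9 in 17 of 18 libraries, by 2.56 ± 1.56 on the log2 scale (SD). The order below Mapk14 was not fixed: Mapk9 exceeded Mapk6 in 11 and Mapk6 exceeded Mapk8 in 11 of 18 libraries, so that these neighbours differed by less than their spread. Mapk7 (ERK5) averaged 2.0 ± 2.51 CPM per kb and had a count in 16 libraries. The neuronal JNK gene Mapk10 was counted in 8 libraries at no more than 2.70 CPM, Mapk12 (p38γ) in 6 at no more than 2.48 CPM and Mapk4 (ERK4) in 2 at no more than 2.99 CPM. Mapk11 (p38β) was counted in 4 libraries, and 94.6% of its summed CPM came from WT-THC replicate 7, where it stood at 54.8 CPM.

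Mapk14 was also among the steadier members. It had 48.3, 522, 84.9 and 271 CPM in 16p11dup-THC, 318, 199.5, 171 and 300.3 CPM in 16p11dup-Veh, 454, 92.8, 117 and 131 CPM in WT-THC, and 152 to 311 CPM with a median of 187 in WT-Veh libraries. The groups overlapped throughout. Its largest log2 difference among the 5 comparisons of 2 groups was -0.30 (SE 0.50, limma adjusted p = 0.76), for WT-THC over WT-Veh.

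Among the MAP2Ks, the ERK kinase Map2k1 (MEK1) had 21.4 ± 11.9 and Map2k7 (MKK7), which acts on JNK, had 21 ± 27.4 CPM per kb, with 1349 of its exon bases shared with Gm49320 on the same strand. Map2k1 exceeded Map2k7 in 11 of 18 libraries, within the spread. Map2k4 (MKK4), which acts on JNK and p38, had 8.80 ± 10.4 CPM per kb, Map2k2 (MEK2) had 7.14 ± 7.16 and Map2k5 (MEK5), the kinase of ERK5, had 6.72 ± 4.34. The p38 kinases Map2k6 (MKK6) and Map2k3 (MKK3) were lowest, at 3.19 ± 4.98 and 2.46 ± 2.59 CPM per kb, each with a count in 14 libraries.

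The MAP3Ks had no single leading gene. Map3k11 (MLK3) averaged 27.5 ± 30.0 CPM per kb and was the highest MAP3K in 7 libraries, and Map3k7 (TAK1), which carries Toll-like receptor and interleukin signals, averaged 24.4 ± 26.8 and was the highest in 5. Map3k3 (MEKK3), Map3k1 (MEKK1) and Map3k2 (MEKK2) followed with 18 ± 18.5, 16.8 ± 12.2 and 12.4 ± 13.8 CPM per kb. None of these neighbours was ordered beyond its spread, since the first exceeded the second in 11, 9, 8 and 12 of 18 libraries. Map3k11 had 67.3, 159, 0.459 and 103 CPM in 16p11dup-THC, 111, 56.8, 17.4 and 30.8 CPM in 16p11dup-Veh, 198, 191, 15.1 and 372 CPM in WT-THC, and 16.0 to 491 CPM with a median of 65.3 in WT-Veh libraries. All groups overlapped for Map3k11. Map3k1 had the smallest spread within groups of the 28 members, with a pooled SD of 0.79 on the log2 scale. Map3k12 (DLK) had the largest, at 2.69, none of its recovered counts was whole, and it shares 1573 exon bases with Pcbp2 on the other strand. Map3k15, on the X chromosome, was highest in WT-THC replicate 8 with 374 CPM, which made up 60.5% of its summed CPM. Its recovered counts were not whole in 12 of the 15 libraries with a count, and it shares 603 exon bases with Pdha1 on the other strand.

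Map4k4 (HGK) had the highest mean of the MAP4Ks, at 32.7 ± 26.1 CPM per kb, and was the highest MAP4K in 15 of 18 libraries. It exceeded Map4k2 in 18 of 18 libraries, by 2.0 ± 1.57 on the log2 scale. Map4k2, Map4k5 and Map4k3 averaged 10.3 ± 11.7, 6.86 ± 6.13 and 6.53 ± 4.75 CPM per kb. Map4k1 (HPK1), known from blood cells, was counted in 3 libraries. Among the substrate kinases Mapkapk2 led with 24.9 ± 30.7 CPM per kb and was highest in 14 of 18 libraries, above Mapkapk5 (4.63 ± 6.27) and Mapkapk3 (4.47 ± 10.9). Of the 3195 exon bases of Mapkapk5, 1805 are shared with Adam1a and 1801 with Gm42878, both on the same strand. Of the interacting proteins, Mapk1ip1 had 35 ± 46.1 CPM per kb, and Mapk1ip1l had 17.6 ± 17.8. Of the JNK scaffolds, Mapk8ip3 (JIP3) had 4.28 ± 3.03 CPM per kb in all 18 libraries, Mapk8ip1 (JIP1) was counted in 5 and Mapk8ip2 (JIP2) in 1.

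**Figure D2:**
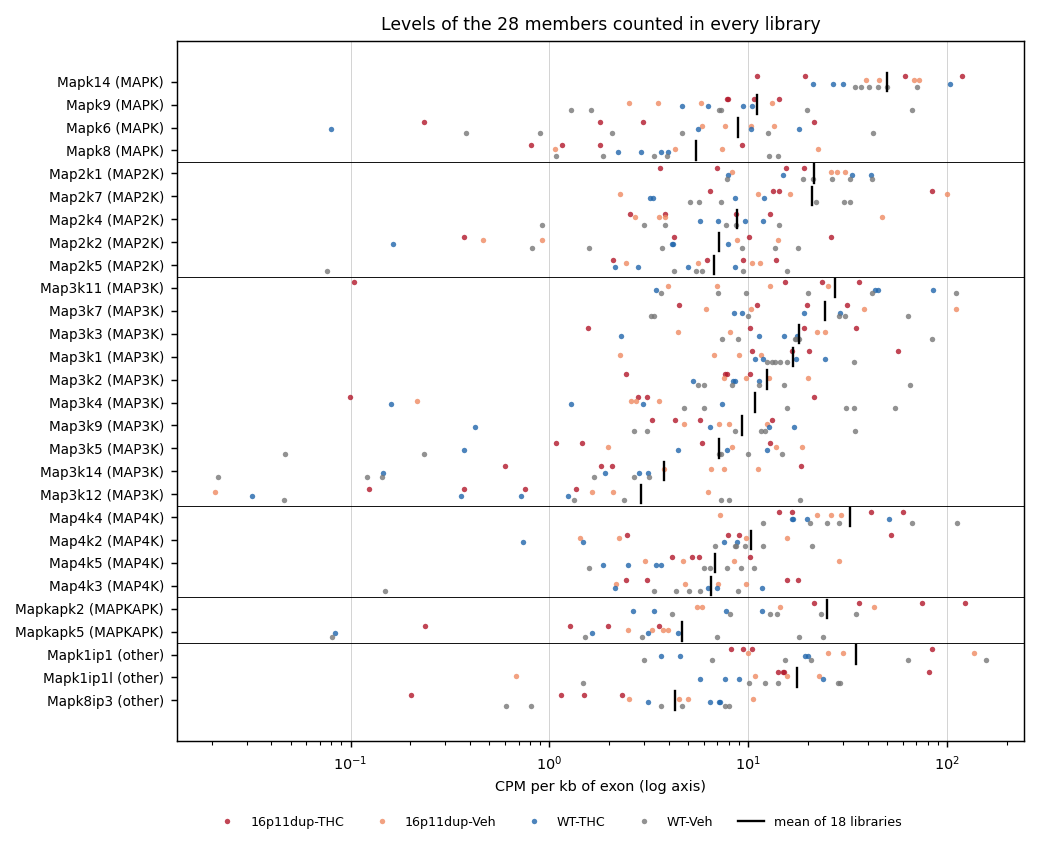
Levels of the 28 genes counted in all 18 libraries, in CPM per kb of exon on a log axis, with a point per library coloured by group and a bar at the mean. Mapk14 has the highest mean (49.8), and the highest library of each gene is more than 10 times its lowest.

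The median within-group SD of the 28 members was 1.503 on the log2 scale, against 1.63 for the 4784 genes counted in all 18 libraries whose mean log2 CPM lay in the same range.

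No member passed an adjusted p of 0.10 in limma or edgeR in any of the 6 comparisons, and the smallest limma adjusted p of a member was 0.74. Members are therefore described below at an unadjusted p of 0.05, the threshold at which 7 members were reached in at least 1 comparison. Of the 46 members with any count, 0 were higher and 2 lower in WT-THC over WT-Veh, against 2.35% higher and 1.73% lower of the 13964 genes with any count. In 16p11dup-Veh over WT-Veh, 1 was higher and 1 lower (all genes 2.29% and 1.35%). In 16p11dup-THC over WT-Veh, 1 was higher and 1 lower (all genes 2.69% and 2.84%). In 16p11dup-THC over WT-THC, 1 was higher and 1 lower (all genes 2.45% and 3.35%). In 16p11dup-THC over 16p11dup-Veh, 2 were higher and 1 lower (all genes 1.96% and 3.19%). For the interaction, which is the THC effect in 16p11dup minus the THC effect in WT, 1 was higher and 1 lower (all genes 1.73% and 2.85%). These counts were of the size that the shares of all genes give for 46 genes. The comparisons share libraries and are not independent of each other.

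The median log2 difference of the 46 members was -0.33 in WT-THC over WT-Veh (all genes -0.11), 0.10 in 16p11dup-Veh over WT-Veh (all genes 0.03) and -0.18 in 16p11dup-THC over WT-Veh (all genes -0.10). It was 0.15 in 16p11dup-THC over WT-THC (all genes 0.05), -0.25 in 16p11dup-THC over 16p11dup-Veh (all genes -0.06) and 0.01 for the interaction (all genes -0.02).

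DESeq2 on the recovered counts gave more calls than limma, both for members and for other genes. At a DESeq2 adjusted p of 0.10 it called 5 of 46 members in WT-THC over WT-Veh (4.9% of all genes) and 5 of 46 in 16p11dup-Veh over WT-Veh (3.36%). In 16p11dup-THC it called 5 of 45 over WT-Veh (8.17%), 4 of 46 over WT-THC (6.62%) and 4 of 46 over 16p11dup-Veh (5.93%). For the interaction it called 3 of 46 (5.3%). Many of these were genes whose counts sat mostly in few libraries. Over all 18 libraries, Map3k13 had 95.6% of its summed CPM in WT-Veh replicate 4 and Map4k1 had 69.4% in WT-Veh replicate 1. Both were called over WT-Veh, but Map3k13 was also called in 16p11dup-THC over WT-THC and Map4k1 in 16p11dup-THC over 16p11dup-Veh. Map3k6 had 91.1% in WT-THC replicate 8 and Map3k10 had 64.6% in 16p11dup-Veh replicate 14. These 2 libraries were not in the groups compared where DESeq2 called the gene. In 16p11dup-THC, Map3k10 was counted only in replicate 20 and Map3k6 only in replicate 21. Of the members counted in every library, DESeq2 called Mapkapk2 higher and Mapk8ip3 lower in 16p11dup-THC over WT-THC, with adjusted p = 0.0040 and adjusted p = 0.051. It also called Mapk8ip3 lower in 16p11dup-THC over 16p11dup-Veh, Map3k12 lower in WT-THC and in 16p11dup-THC over WT-Veh, Map3k4 lower in WT-THC and in 16p11dup-Veh over WT-Veh, and the interaction of Map3k4.

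Mapkapk2 was the member with the smallest p. It encodes MK2, the kinase that p38 activates, and lies on chromosome 1 (131053700 to 131097826, reverse strand, GRCm38), with no exon shared with another gene. It had 375, 65.3, 228 and 109.6 CPM in 16p11dup-THC, 131, 17.8, 43.8 and 16.8 CPM in 16p11dup-Veh, 10.2, 8.06, 23.6 and 35.6 CPM in WT-THC, and 12.6 to 106 CPM with a median of 41.0 in WT-Veh libraries. Every 16p11dup-THC library was above every WT-THC library, whereas both vehicle groups overlapped with 16p11dup-THC. The mean was 194 ± 139 CPM in 16p11dup-THC, against 19.4 ± 12.8 CPM in WT-THC (SD, n = 4 each), a ratio of 10.02. The log2 difference was 3.05 (SE 0.81, unadjusted p = 0.0019, limma adjusted p = 0.96), and the exact two-sided permutation p was 0.029, the smallest that 4 against 4 allows. Over 16p11dup-Veh it was 2.12 (SE 0.81, unadjusted p = 0.020, exact permutation p = 0.086) and over WT-Veh 1.85 (SE 0.74, unadjusted p = 0.025, exact permutation p = 0.029). In WT mice THC went with a lower value that missed the threshold (-1.21, SE 0.71, unadjusted p = 0.11), and the interaction was 3.33 on the log2 scale (unadjusted p = 0.0082, limma adjusted p = 0.97). The difference from WT-THC kept its p under 0.05 without any 1 library, with log2 values of 2.64 to 3.603. That from WT-Veh did not without 16p11dup-THC replicate 17 or 20 (1.51 and 1.65) or without WT-Veh replicate 2 (1.54), and that from 16p11dup-Veh did not without 16p11dup-Veh replicate 13 or 16 (1.75 and 1.70) or without 16p11dup-THC replicate 17 (1.78). Among 9 other settings, the p over WT-Veh missed 0.05 with genes counted in at least 4 libraries and with 5 surrogate variables, and that over 16p11dup-Veh missed it in 5, which were the fit without weights, edgeR, that filter, 5 surrogate variables and the 2 groups alone (1.74 to 2.24 over all 9).

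Mapk8ip3 went the other way. It encodes JIP3, a scaffold that holds JNK and its upstream kinases and links vesicles to kinesin, on chromosome 17 (24892153 to 24936977, reverse strand). It had 2.94, 16.7, 21.9 and 33.7 CPM in 16p11dup-THC, 36.8, 72.2, 65.3 and 155 CPM in 16p11dup-Veh, 45.9, 93.6, 104 and 106 CPM in WT-THC, and 8.80 to 117 CPM with a median of 60.2 in WT-Veh libraries. Every 16p11dup-THC library was below every library of 16p11dup-Veh and of WT-THC, and 3 of the 4 lay within the range of WT-Veh. The means were 18.8 ± 12.7 CPM in 16p11dup-THC, 82.3 ± 50.7 in 16p11dup-Veh and 87.2 ± 28.0 in WT-THC (SD, n = 4 each). The log2 difference was -2.65 over WT-THC (SE 0.86, unadjusted p = 0.0079, exact permutation p = 0.029) and -2.57 over 16p11dup-Veh (SE 0.87, unadjusted p = 0.0098, exact permutation p = 0.029). Over WT-Veh it was -1.65 (SE 0.79, unadjusted p = 0.054, exact permutation p = 0.17). The interaction was -3.57 on the log2 scale (unadjusted p = 0.0080), and the limma adjusted p of these 4 values were at least 0.80. The 2 differences and the interaction kept their p under 0.05 without any 1 library. Of the 14558 exon bases of Mapk8ip3, 1557 are shared with Eme2 on the same strand and 1309 and 577 with Mrps34 and Nme3 on the other strand. Counting did not use the strand. The recovered counts of Mapk8ip3 were whole in all 18 libraries, and how reads in the shared bases were assigned was not tested.

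Map2k1, a kinase of the ERK branch, had its lowest mean in 16p11dup-THC. The gene (chromosome 9, 64185770 to 64253631, reverse strand) had 64.8, 52.9, 23.6 and 12.2 CPM in 16p11dup-THC, 104, 88.2, 94.9 and 28.0 CPM in 16p11dup-Veh, 141, 51.1, 27.0 and 113 CPM in WT-THC, and 26.7 to 143 CPM with a median of 80.5 in WT-Veh libraries. All groups overlapped. Its mean of 38.4 ± 24.6 CPM in 16p11dup-THC (n = 4) stood against 84.1 ± 39.9 CPM in WT-Veh (n = 6), with a log2 difference of -0.99 (SE 0.45, unadjusted p = 0.045, exact permutation p = 0.071). The p missed 0.05 in 8 of the 18 fits without 1 library, which were those without WT-Veh replicates 1, 2 or 4, WT-THC replicates 7 or 8, or 16p11dup-THC replicates 18, 20 or 21, and the log2 difference ranged from -1.28 to -0.76. Of 9 other settings, 2 kept it.

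Map3k1 (chromosome 13, 111746428 to 111808993, reverse strand) encodes MEKK1, a kinase at the head of the JNK and ERK branches that also acts as a ubiquitin ligase. It had 425, 77.9, 151 and 123 CPM in 16p11dup-THC, 67.0, 86.5, 16.8 and 49.9 CPM in 16p11dup-Veh, 129.6, 80.5, 88.9 and 181 CPM in WT-THC, and 93.0 to 254 CPM with a median of 105 in WT-Veh libraries. Every 16p11dup-Veh library was below every WT-Veh library, while 16p11dup-THC overlapped with all groups. The log2 difference of 16p11dup-Veh over WT-Veh was -1.18 (SE 0.47, unadjusted p = 0.025), and the exact permutation p of 0.0048 was the smallest that 4 against 6 allows. That of 16p11dup-THC over 16p11dup-Veh was 1.5 (SE 0.54, unadjusted p = 0.015, exact permutation p = 0.057). The first missed the threshold without 16p11dup-Veh replicate 14 (-0.81) or replicate 16 (-1.15), and the second held without any 1 library, at 1.11 to 2.01. Among 9 other settings, the first missed it in 5 (-1.35 to -0.81 over all 9), which were voom weights with the design, the fit without weights, edgeR, genes counted in at least 4 libraries and 5 surrogate variables. The second missed it in 3 (1.31 to 1.79 over all 9), which were that filter, 5 surrogate variables and the 2 groups alone.

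Map3k14 (chromosome 11, 103219762 to 103267472, reverse strand) encodes NIK, the kinase of the non-canonical NF-κB pathway. It had 13.5, 11.9, 121 and 3.91 CPM in 16p11dup-THC, 42.7, 49.5, 73.7 and 24.8 CPM in 16p11dup-Veh, 0.96, 12.5, 20.6 and 18.4 CPM in WT-THC, and 0.14 to 20.8 CPM with a median of 5.97 in WT-Veh libraries. Every 16p11dup-Veh library was above every library of both wild-type groups. Its log2 difference over WT-Veh was 3.72 (SE 1.37, unadjusted p = 0.016, limma adjusted p = 0.98, exact permutation p = 0.033), and the ratio of means was 5.59. The p stayed under 0.05 without any 1 library, at 3.05 to 4.84, but missed it with edgeR and with 5 surrogate variables (2.57 to 4.04 over 9 settings).

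Map3k4 (chromosome 17, 12227621 to 12318796, reverse strand) encodes MEKK4, which acts on p38 and JNK and is the effector of the GADD45 stress proteins. It had 28.4, 219.6, 1.01 and 31.4 CPM in 16p11dup-THC, 36.5, 27.9, 2.20 and 26.3 CPM in 16p11dup-Veh, 1.62, 13.1, 30.3 and 75.5 CPM in WT-THC, and 48.5 to 560 CPM with a median of 239 in WT-Veh libraries. Its values were high in WT-Veh and mostly low elsewhere, with no overlap between 16p11dup-Veh and WT-Veh and with overlap for both other groups. Over WT-Veh the log2 difference was -3.32 in WT-THC (SE 1.40, unadjusted p = 0.032, exact permutation p = 0.019), -2.97 in 16p11dup-Veh (SE 1.41, unadjusted p = 0.052, exact permutation p = 0.0095) and -2.99 in 16p11dup-THC (SE 1.46, unadjusted p = 0.059, exact permutation p = 0.048). These 3 differences share the same 6 WT-Veh libraries. That of WT-THC missed the threshold without WT-Veh replicates 1, 2, 3 or 4 (-3.24 to -3.07) and without WT-THC replicates 7 or 8 (-3.20 to -1.89). It also missed it with voom weights with the design and with 5 surrogate variables.

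Map3k13 (chromosome 16, 21794346 to 21933439, forward strand) encodes LZK, a kinase of the JNK branch known from neurons. It had no count in WT-THC, at most 0.13 CPM in 16p11dup-THC and at most 0.12 CPM in 16p11dup-Veh, against 0 to 111 CPM with a median of 0.35 in WT-Veh libraries. The WT-Veh mean rested on replicate 4. With 3 counts per library as the floor, WT-THC was at least 66.7-fold lower than WT-Veh, but at least 3.33-fold lower without WT-Veh replicate 4. The fitted log2 difference, which depends on the offset added to counts of 0, was -3.97 (unadjusted p = 0.037, exact permutation p = 0.086), and the p missed 0.05 without WT-Veh replicate 5 or 6 or without any 1 of the 4 WT-THC libraries (-4.13 to -3.41). It also missed it with an offset of 2 counts, with 5 surrogate variables and with the 2 groups alone.

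**Figure D3:**
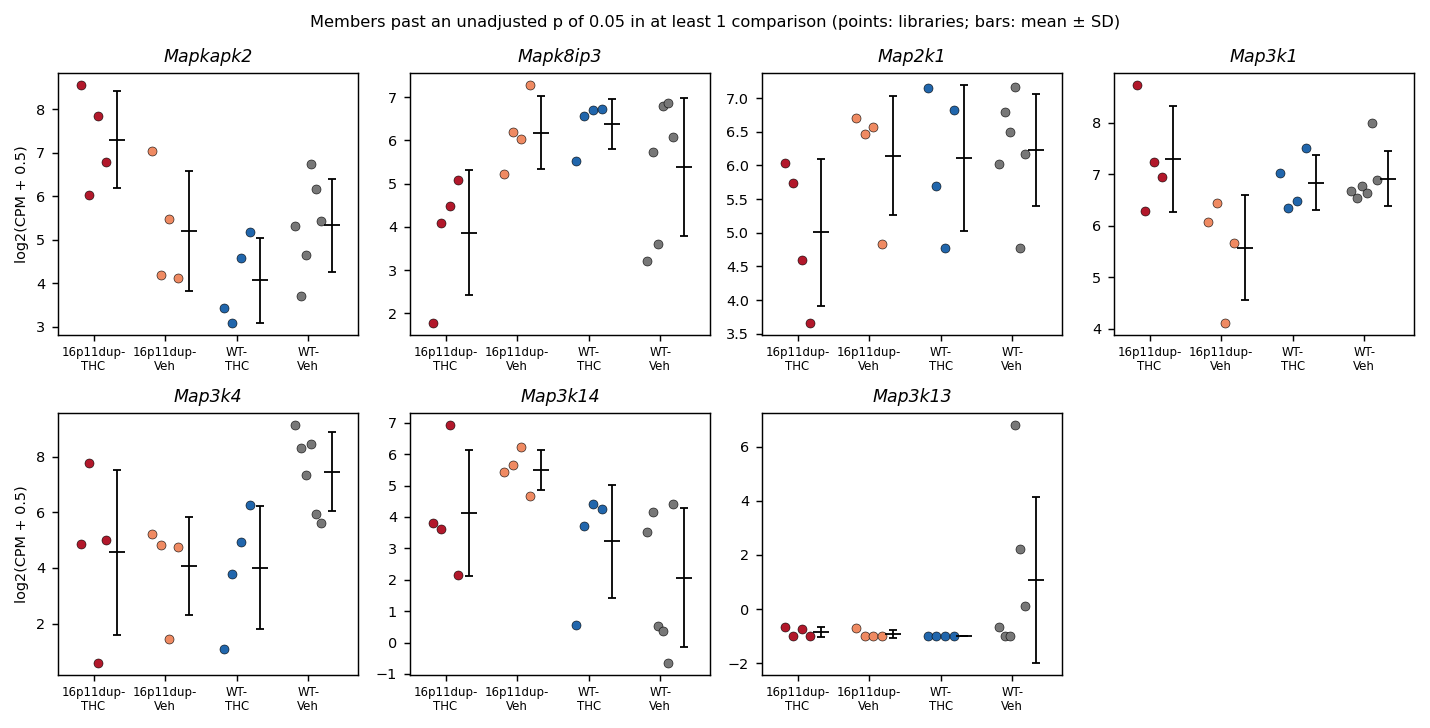
log2(CPM + 0.5) of the 7 genes past an unadjusted p of 0.05, with a point per library and the mean ± SD (n = 4, or n = 6 for WT-Veh) beside each group. Mapkapk2 in 16p11dup-THC lies above all WT-THC points, and Mapk8ip3 in 16p11dup-THC lies below all 16p11dup-Veh and WT-THC points.

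**Figure D4:**
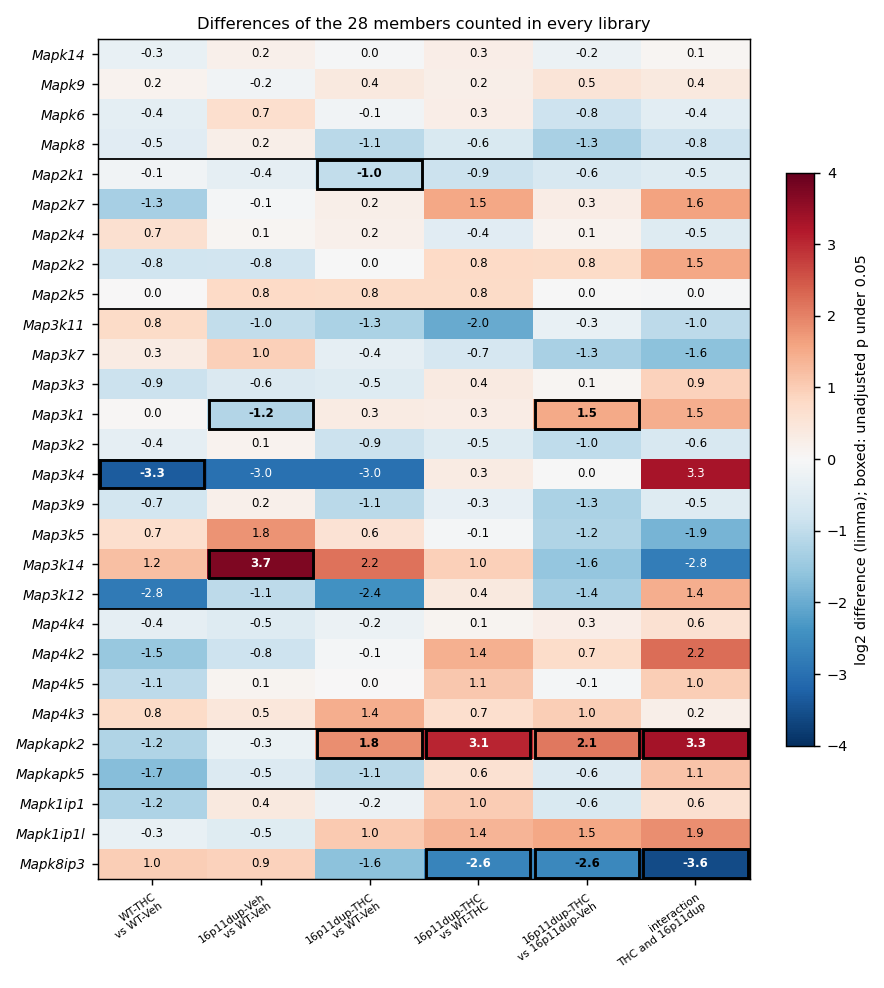
log2 differences (limma) of the 28 genes counted in every library in the 6 comparisons, red for higher and blue for lower in the group named first, with a box at an unadjusted p under 0.05. Mapkapk2 is boxed in 4 columns and Mapk8ip3 in 3, and every adjusted p is at least 0.74.

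The genes around the cascade were taken from 8 lists with 91 genes in the table, of which 84 had a count, and none passed a limma adjusted p of 0.10. At an unadjusted p of 0.05, 2 were higher and 3 lower in WT-THC over WT-Veh, 1 and 2 in 16p11dup-Veh over WT-Veh, and 2 and 4 in 16p11dup-THC over WT-Veh. In 16p11dup-THC, 1 was higher and 4 were lower than in WT-THC, and 3 were higher and 2 lower than in 16p11dup-Veh. For the interaction the counts were 2 and 1. As shares of 84 these were 1.19% to 3.57% higher and 1.19% to 4.76% lower, beside the 1.73% to 2.69% and 1.35% to 3.35% of all genes.

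Of 14 genes of Ras and Raf activation, 1 was past the threshold between the groups that received THC. Grb2, the adaptor that brings Sos to receptors, averaged 58.0 ± 58.2 CPM in 16p11dup-THC, against 187 ± 95.8 CPM in WT-THC (log2 difference -2.20, SE 0.91, unadjusted p = 0.028). Rras2, a Ras-related GTPase, averaged 4.21 ± 5.61 CPM in WT-THC, against 38.6 ± 57.6 CPM in WT-Veh (-4.32, SE 1.71, unadjusted p = 0.024). Ksr1, a scaffold for Raf, MEK and ERK with a count in 13 libraries, averaged 7.51 ± 10.9 CPM in 16p11dup-THC, against 1.58 ± 2.57 CPM in 16p11dup-Veh (3.74, SE 1.53, unadjusted p = 0.028). Among 7 counted kinases that act like MAP3Ks or MAP4Ks under other names, Pak2, an effector of Rac and Cdc42, averaged 90.6 ± 39.5 CPM in 16p11dup-THC and 118 ± 59.9 CPM in 16p11dup-Veh, against 252 ± 102 CPM in WT-Veh. Its log2 differences from WT-Veh were -1.30 (SE 0.39, unadjusted p = 0.0045) and -1.01 (SE 0.37, unadjusted p = 0.016). The 55.0 to 143 CPM of the 16p11dup-THC libraries lay below the 153 to 428 CPM of the WT-Veh libraries. Pak2 kept its p under 0.05 without any 1 library in both comparisons with WT-Veh. Of the 4 genes named here, the other 3 missed an unadjusted p of 0.05 when 1 library was left out. Grb2 did so without WT-THC replicates 8, 9 or 11 or 16p11dup-THC replicates 20 or 21 (-3.55 to -1.51 over the 18 fits that each leave out 1 library), and its 16p11dup-THC mean was 29.7 CPM without replicate 18. Rras2 missed it without WT-THC replicates 8 or 9 (-5.30 to -3.06 over the 18 fits). Its WT-THC mean was 1.64 CPM without replicate 7 and its WT-Veh mean 15.3 CPM without replicate 1. Ksr1 missed it without 16p11dup-Veh replicates 14 or 16 or 16p11dup-THC replicates 17 or 18 (2.78 to 4.92 over the 18 fits). Its means were 2.30 CPM in 16p11dup-THC without replicate 18 and 0.309 CPM in 16p11dup-Veh without replicate 13. Among 9 other settings, Pak2 kept a p under 0.05 over WT-Veh in 9 for 16p11dup-THC and in 6 for 16p11dup-Veh. In these settings Rras2 kept it in 7, Grb2 in 4 and Ksr1 in 3.

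Of 12 genes that feed TAK1, Ube2v1, a partner of the ubiquitin-conjugating enzyme Ube2n, was past the threshold in 16p11dup-THC over WT-Veh (-3.67, SE 1.42, unadjusted p = 0.021), with 38.6 ± 54.4 CPM in 16p11dup-THC (SD, n = 4), against 251 ± 499.5 CPM in WT-Veh (SD, n = 6). The WT-Veh mean rested on replicate 1 at 1269 CPM and was 46.8 CPM without it, where the p was 0.051. The 16p11dup-THC mean was 12.7 CPM without replicate 21, and the p also missed 0.05 without 16p11dup-THC replicates 18 or 20 (-4.77 to -2.39 over the 18 fits). Ripk1 was past it in WT-THC over WT-Veh (-3.00, SE 1.32, unadjusted p = 0.038), with 9.33 ± 10.1 CPM in WT-THC (SD, n = 4), against 44.2 ± 29.5 CPM in WT-Veh (SD, n = 6). Ripk1 missed it without WT-Veh replicates 1, 3 or 5 or WT-THC replicates 7 or 9 (-3.88 to -1.87 over the 18 fits). Its WT-THC mean was 5.06 CPM without replicate 8. Of 10 counted MAPK phosphatases, Dusp6, which acts on ERK, had 477 ± 215 CPM in 16p11dup-THC, 299 ± 144 CPM in 16p11dup-Veh and 278 ± 69.3 CPM in WT-Veh. Its log2 difference was 0.84 over WT-Veh (SE 0.35, unadjusted p = 0.030) and 0.89 over 16p11dup-Veh (SE 0.38, unadjusted p = 0.035). Dusp7, also a phosphatase of ERK, was lower, with 108 ± 89.5 CPM in 16p11dup-THC, against 273 ± 162 CPM in WT-Veh (-1.39, SE 0.55, unadjusted p = 0.024). Dusp6 missed 0.05 over WT-Veh without WT-Veh replicates 3 or 6 or 16p11dup-THC replicates 17 or 18 (0.48 to 1.00 over the 18 fits). Over 16p11dup-Veh it missed 0.05 without WT-THC replicate 7, 16p11dup-Veh replicates 13 or 16 or 16p11dup-THC replicates 17 or 18 (0.52 to 1.10 over the 18 fits). Dusp7 missed it without WT-Veh replicate 5 or 16p11dup-THC replicates 17, 18 or 20 (-1.77 to -1.15 over the 18 fits). Its 16p11dup-THC mean was 64.1 CPM without replicate 21. Among 9 other settings, Ube2v1 kept a p under 0.05 in 7, Ripk1 in 6, Dusp6 in 5 for each comparison and Dusp7 in 8. None of 5 counted Sprouty and Spred inhibitors and none of 7 counted downstream kinases of the Rps6ka and Mknk families was past the threshold in any comparison.

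Among 7 other scaffolds Spag9 (JIP4), the closest relative of Mapk8ip3, had 506 ± 404 CPM in 16p11dup-THC, 147 ± 33.9 CPM in 16p11dup-Veh and 193 ± 76.4 CPM in WT-THC. Its log2 difference was 1.45 over 16p11dup-Veh (SE 0.58, unadjusted p = 0.025) and 1.24 over WT-THC (SE 0.58, unadjusted p = 0.0498), with an interaction of 1.90 (unadjusted p = 0.028). Over WT-THC its p stayed under 0.05 in 6 of the 18 fits without 1 library, and the log2 difference was 0.59 to 1.63 over all 18. Over 16p11dup-Veh the p missed 0.05 without 16p11dup-Veh replicate 16 or 16p11dup-THC replicates 18 or 20 (0.81 to 1.85 over the 18 fits). The interaction missed it without WT-Veh replicate 3 or 16p11dup-THC replicates 18 or 20 (1.21 to 2.30 over the 18 fits). Lamtor3, a scaffold of MEK1 and ERK, averaged 10.04 ± 11.01 CPM in WT-THC, against 71.7 ± 79.3 CPM in WT-Veh (-3.31, SE 1.32, unadjusted p = 0.024). It missed 0.05 without WT-THC replicates 8 or 9 (-4.28 to -1.96 over the 18 fits), and its WT-THC mean was 6.01 CPM without replicate 11. The β-arrestin genes were past the threshold in different comparisons. Arrb1 averaged 111 ± 97.5 CPM in 16p11dup-THC, against 224 ± 82.0 CPM in 16p11dup-Veh (-1.21, SE 0.51, unadjusted p = 0.032), and Arrb2 averaged 623 ± 365 CPM in WT-THC, against 381 ± 263 CPM in WT-Veh (0.90, SE 0.37, unadjusted p = 0.027). Arrb1 missed 0.05 without 16p11dup-Veh replicate 14 or 16p11dup-THC replicates 18, 20 or 21 (-1.62 to -1.02 over the 18 fits). Its 16p11dup-THC mean was 62.7 CPM without replicate 17. Arrb2 missed 0.05 without WT-Veh replicate 3 or WT-THC replicates 7 or 9 (0.73 to 1.05 over the 18 fits). Among 9 other settings, Arrb1 and Arrb2 kept a p under 0.05 in 3 each and Lamtor3 in 6. Spag9 kept it in 8 over 16p11dup-Veh and in 5 over WT-THC.

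Of 22 counted nuclear targets, Mef2c, a transcription factor that p38 and ERK5 phosphorylate, averaged 976 ± 179 CPM in 16p11dup-THC, against 562 ± 125 CPM in WT-Veh. Its ranges of 845 to 1239.6 CPM and 372 to 717 CPM did not overlap (log2 difference 0.83, SE 0.27, unadjusted p = 0.0071). Ets1 was higher in 16p11dup-Veh than in WT-Veh, with 81.4 to 151 CPM against 1.48 to 78.5 CPM (2.33, SE 0.94, unadjusted p = 0.026). Ets2 averaged 1.74 ± 2.24 CPM in 16p11dup-THC, against 63.4 ± 66.0 CPM in 16p11dup-Veh (-5.89, SE 1.97, unadjusted p = 0.0091). Egr2, an early response gene counted in 6 libraries, had no count in 16p11dup-THC, against 0 to 8.18 CPM in WT-THC libraries (unadjusted p = 0.0064). Mef2c, Ets2 and Egr2 kept a p under 0.05 in these comparisons without any 1 library, and Ets1 did not without 16p11dup-Veh replicate 13 (2.20). The Ets2 means were 0.758 CPM in 16p11dup-THC without replicate 18 and 30.5 CPM in 16p11dup-Veh without replicate 14. Among 9 other settings, Mef2c, Ets2 and Egr2 kept a p under 0.05 in 8 each and Ets1 in 7.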

How the data were processed

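The study made low-input RNA libraries (Nugen Ovation V2 by its methods and labels, Smart-seq2 by its results text). Per the labels and methods, the authors ran RSEM 1.3.0 with its STAR option on GRCm38 without strand, left out 4 outlier libraries (not analysed here), and deposited log2 values from voom. Each deposited log2 value is the log2 of an estimated count plus 0.5 relative to a scaled library size (scale 0.735 to 1.305), and counts were recovered in steps of 0.01 (94.3% whole over all genes, 95.5% for the members). The deposited read counts and the mapped fraction gave the mapped percent (72.5% to 81.8%). The deposited surrogate variable scores entered 1 alternative. A deposited column of other percentages (rDNA) was not used.

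The main fit was limma 3.58.1 (R 4.3.3) with voom weights on 22428 genes and 18 libraries, with group and mapped percent as terms, two-sided, and Benjamini-Hochberg adjustment over all genes. Exact permutation tests compared mean log2 CPM of 2 groups, two-sided, without the mapped percent. Alternatives were edgeR 4.0.16 and DESeq2 1.42.0 on rounded counts, other weights, a filter, an offset of 2 counts, other covariates, the 2 groups alone, and a fit without each library. Coordinates and exon lengths are from GENCODE M21 (49 members matched), and 17 members share exon bases with another gene. Some rows that match the symbol rule or stood in a list are not reported here. Values are given for the 3 most abundant members of each role counted in all 18 libraries, members at an unadjusted p under 0.05, members with few counts, and up to 4 genes of each list by smallest p. The members and lists were chosen with earlier results of these data known. P-values measure the spread between libraries, which may be technical.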

Additional observations from a re-analysis of the deposited data

Results flagged for a closer look

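Within single groups, 6 of 36 sets of library values had 1 library far from the rest by Dixon's test at its 95% level, which chance gives in about 1 of 20 sets. The test was applied to log2 CPM, and the values are printed here as CPM. These were Map2k1 at 28.0 CPM in 16p11dup-Veh replicate 16, Map3k1 at 254 CPM in WT-Veh replicate 5, Map3k11 at 0.459 CPM in 16p11dup-THC replicate 20, Map3k14 at 0.958 CPM in WT-THC replicate 7, Map3k4 at 2.20 CPM in 16p11dup-Veh replicate 14 and Mapk8ip3 at 45.9 CPM in WT-THC replicate 7. WT-THC replicate 7 appears for both Map3k14 and Mapk8ip3, as the lowest library in each.

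The THC effect differed between genotypes at an unadjusted p of 0.05 for Mapk8ip3 (interaction -3.57 on the log2 scale) and for Mapkapk2 (interaction 3.33). Neither passed adjustment over all genes (limma adjusted p = 0.97 for both).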

How the results depend on the processing

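The counts of members at an unadjusted p under 0.05 were 2 in WT-THC over WT-Veh, 2 in 16p11dup-Veh over WT-Veh, 2 in 16p11dup-THC over WT-Veh, 2 over WT-THC and 3 over 16p11dup-Veh, and 2 for the interaction. With edgeR they were 6, 6 and 7 of 46 in WT-THC, 16p11dup-Veh and 16p11dup-THC over WT-Veh (all genes 7.53%, 7.52% and 8.84%). With DESeq2 they were 5, 8 and 10 there (all genes 11.5%, 9.19% and 15%), 4 in 16p11dup-THC over WT-THC (13.4%), 7 over 16p11dup-Veh (12.1%) and 7 for the interaction (12.2%). Without weights 16p11dup-Veh over WT-Veh gave 4. WT-THC over WT-Veh gave 1 with an offset of 2 counts and 1 with 5 surrogate variables. 16p11dup-THC over WT-Veh gave 1 with 5 surrogate variables and 1 with only the 2 groups, and 16p11dup-THC over 16p11dup-Veh gave 1 with genes counted in at least 4 libraries and 1 with 5 surrogate variables. The cause was not tested. Without 1 library the counts ranged from 0 (without WT-THC replicate 7) to 3 in WT-THC over WT-Veh, from 1 to 3 in 16p11dup-Veh over WT-Veh, from 0 (without 16p11dup-THC replicate 20) to 4 (without WT-Veh replicates 3 or 6) in 16p11dup-THC over WT-Veh, from 2 to 3 in 16p11dup-THC over WT-THC, and from 2 to 4 in 16p11dup-THC over 16p11dup-Veh and for the interaction. Of the named members, Mapkapk2 in 16p11dup-THC over WT-THC (2.86 to 3.26) and Mapk8ip3 over WT-THC (-2.74 to -2.41) and over 16p11dup-Veh (-2.77 to -2.33) kept an unadjusted p under 0.05 in 9 of 9 alternatives, and their interactions in 7 of 8, with edgeR as the exception. Mapkapk2 kept it in 7 of 9 over WT-Veh and in 4 of 9 over 16p11dup-Veh, Map2k1 in 2 of 9, Map3k1 in 4 of 9 in 16p11dup-Veh over WT-Veh and in 6 of 9 in 16p11dup-THC over 16p11dup-Veh, Map3k13 in 6 of 9, and Map3k4 and Map3k14 in 7 of 9 each. No named member changed direction. With the longest transcript as length, Map2k2, Map4k3, Map4k5 and Mapk8ip3 averaged 16.8, 15.3, 13.1 and 8.57 CPM per kb, and Mapk6, Mapk8, Map2k3, Map2k6, Map4k4 and Mapk1ip1l averaged 14.6, 10.9, 3.704, 5.27, 54.1 and 32.2. In the order of means Map2k2 then passed Map2k4, Map4k3 passed Map4k2 and Map4k5, Mapkapk3 passed Mapkapk5, and Map3k4 passed Map3k1 and Map3k2. No paired analysis was possible because the library numbers in the labels are not shared between groups.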

Other observations

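Several members stood far higher in 1 library than in the others. Mapk11, which encodes p38β, had 54.8 CPM in WT-THC replicate 7 and a count in only 3 other libraries, at no more than 2.85 CPM. Mapk8ip2, a JNK scaffold known from brain, had 18.1 CPM in WT-Veh replicate 2 and no count in the other 17 libraries. Map3k13 had 111 CPM in WT-Veh replicate 4. Map3k10, a mixed-lineage kinase of the JNK branch, had 105 CPM and Mapkapk3 had 254 CPM in 16p11dup-Veh replicate 14, the library that also held the highest values of Map2k7 (384 CPM) and Map3k7 (717 CPM). Map3k15 had 374 CPM in WT-THC replicate 8. The source of these single high values was not tested.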
